A study of Mus musculus with 11 samples.

Results

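The antioxidant and glutathione enzymes were followed in whole mouse ovaries at 3 ages. The set was chosen by gene symbol alone: all protein-coding rows named as glutathione peroxidases (Gpx), peroxiredoxins (Prdx), superoxide dismutases (Sod) or cytosolic and related glutathione S-transferases (Gst), together with catalase, the enzymes of glutathione synthesis and reduction, the thioredoxins and their reductases, sulfiredoxin, Nqo1, Hmox1 and the transcription factor gene Nfe2l2. It held 53 genes of the 54232 in the count table. Of these, 50 had enough counts to be tested, and Gpx2, Gpx5 and Gstt4 did not, with at most 6 counts in any library. The ovaries were of WT (wild-type) genotype throughout, with no treatment named. By their titles 4 libraries were from mice 2 months old, 4 from mice of 18 months and 3 from mice of 24 months, and the library names of the oldest group read 22m. The series contrasts the young ovary with the old one and with the ovary after reproductive life has ended.

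These enzymes remove reactive oxygen species and the reactive products they leave. Superoxide dismutases turn superoxide into hydrogen peroxide, which catalase, the glutathione peroxidases and the peroxiredoxins reduce to water, the peroxidases at the expense of glutathione and most peroxiredoxins at the expense of thioredoxin. Glutathione S-transferases couple glutathione to electrophiles, and NRF2, the product of Nfe2l2, binds antioxidant response elements in the promoters of many genes of this kind when oxidants release it from KEAP1. In the ovary these systems act in oocytes, granulosa cells and the steroid-producing luteal and theca cells, where cytochrome P450 reactions generate oxidants.

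The counts of 18 month replicates 3 and 4, the shallowest libraries at 5231724 and 8892915 counts, differed by about as much as sampling noise gives, with a chi-square of 1.10 per gene (17173 genes), whereas the second closest pair of one age gave 28.7. They were summed and used as 1 sample, named replicate 3+4, which left 4, 3 and 3 samples. The other libraries held 26061630 to 33407509 counts. Nothing in the labels ties a sample to its own animal, so each p-value reflects the spread among these samples, which may be technical. Granulosa cell markers, at a summed 5725 to 6897 CPM at 2 months, and the oocyte, luteal and theca lists were detected as the tissue label implies. CPM are counts scaled to library size with TMM factors. A gene is said to be called, to rise or to fall when edgeR's quasi-likelihood F-test gave it a Benjamini-Hochberg adjusted p under 0.05 over all 20331 tested genes.

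By 24 months 3 of the 7 glutathione S-transferases of the mu class, the 3 tested ones of the theta class, Nqo1 and Gclc, the rate-limiting gene of glutathione synthesis, were higher than at 2 months. Lower were 4 of 6 tested glutathione peroxidases, 4 of 7 genes of the peroxiredoxin group and both intracellular superoxide dismutases, while catalase was not called. Of the 50 tested members 24 were called at 24 months against 2 months, 48% of them, beside 35.0% of all tested genes. They were 9 higher, with 19.2% of all genes called higher, and 15 lower, with 15.8% of all genes called lower. At 18 months against 2 months 10 members were called, 20% beside 11.6% of all genes, with 5 higher and 5 lower beside 6.04% and 5.51%. The median log2 fold change of the tested members was -0.08 at 24 months and -0.11 at 18 months, against 0.03 and 0.01 over all tested genes. Both comparisons share the 2 month samples. Of the 10 members called at 18 months 8 were called the same way at 24 months, and 24 of the 50 were called in neither comparison. With library totals alone as the scaling, the median of all genes at 24 months was raised by 0.18 on the log2 scale. The split of members at 24 months was then 13 higher and 10 lower, beside 5048 higher and 1869 lower of all genes. Of the calls, 56.5% were higher among members and 73.0% among all genes, against 37.5% and 54.9% with TMM.

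**Figure D1:**
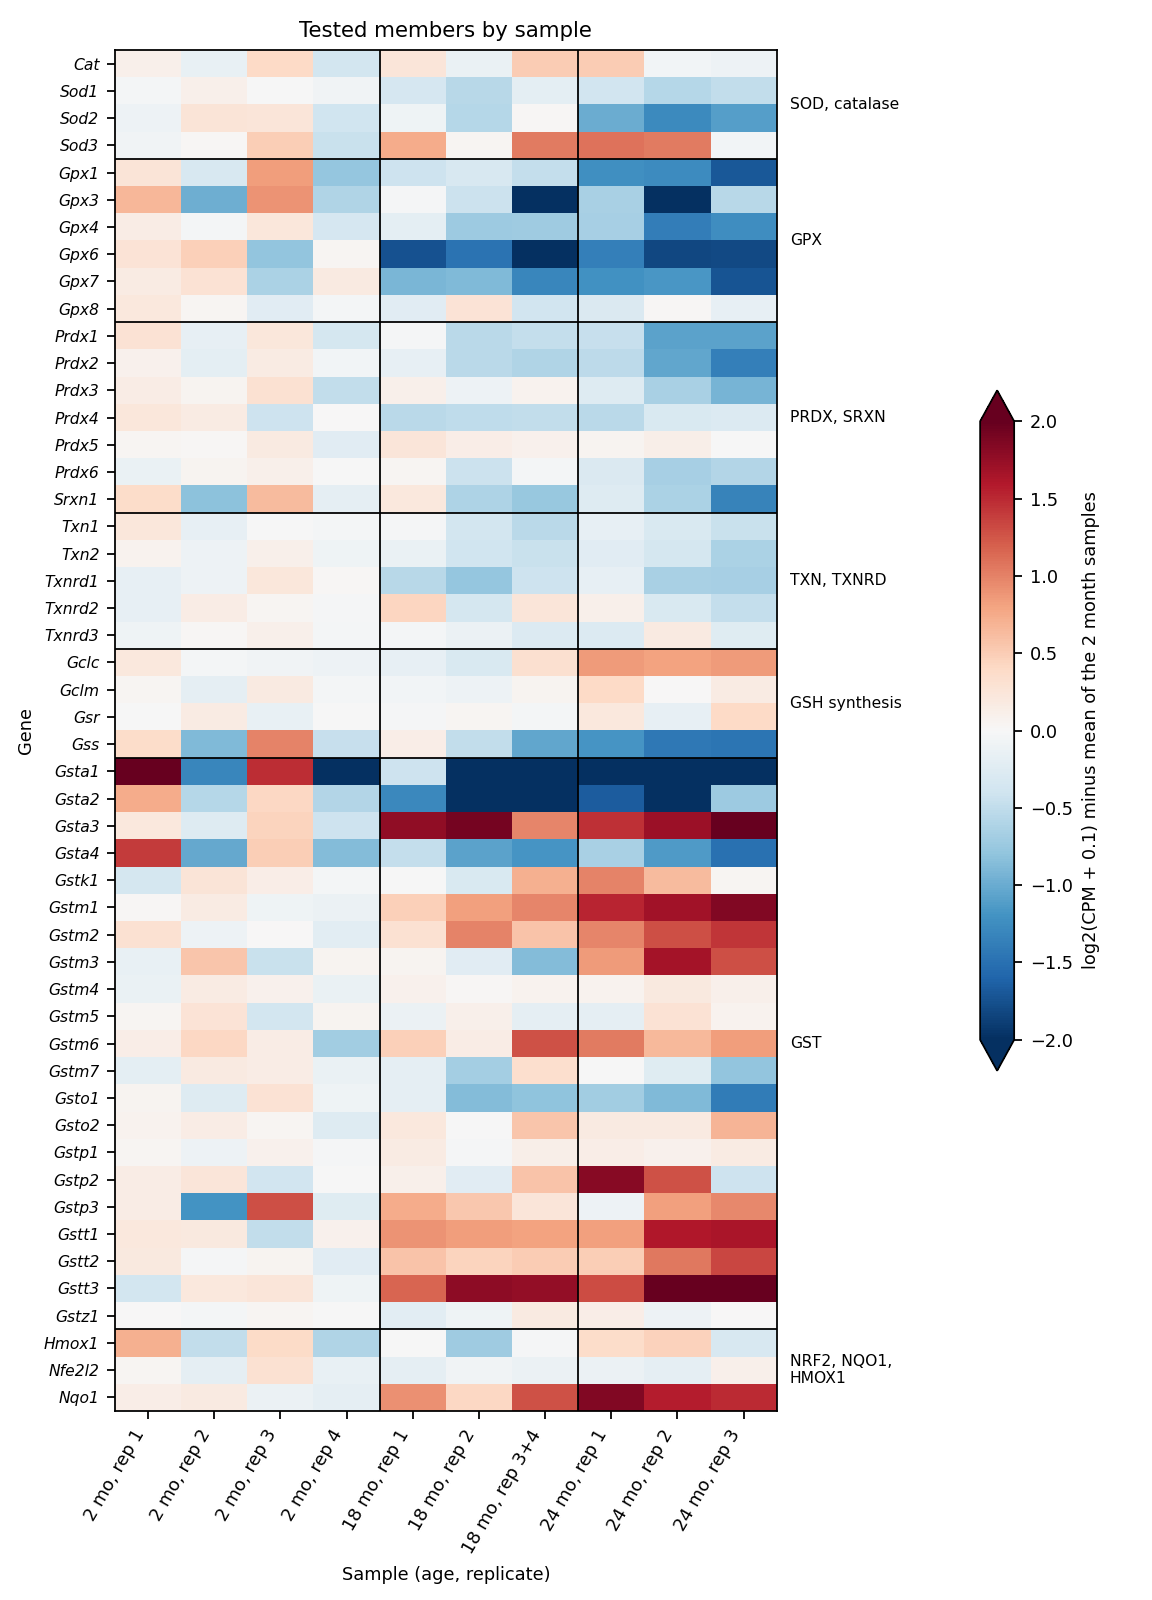
Level of each of the 50 tested genes in the 10 samples, as log2(CPM + 0.1) minus the mean of the 2 month samples, with rows grouped by enzyme family and columns by age. The red rows at 24 months lie mainly among the GST genes, Gclc and Nqo1. Blue rows lie among the GPX and PRDX genes, at Sod2 and Gss, and within the GST group at Gsta1, Gsta2, Gsta4 and Gsto1.

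The glutathione S-transferases were the family with most members called higher. At 24 months against 2 months 7 of 21 tested genes were higher and 2 lower. That is 42.9% called, beside 48% of all members and 35.0% of all genes, of which 19.2% were called higher. At 18 months 4 were higher and 1 lower, 23.8% called beside 11.6% of all genes. Their summed level was 1173 ± 244 CPM (SD, n = 4) at 2 months, 1416 ± 122 (n = 3) at 18 months and 2120.5 ± 190.3 (n = 3) at 24 months, and the 24 month samples were above every younger one. At 18 and 24 months most of this sum came from Gstm1 and Gstm2.

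Gstm1, a mu class transferase, was at 321, 353, 296 and 290.1 CPM at 2 months, at 438, 554 and 617 at 18 months, and at 902, 1002 and 1134 at 24 months. The ages did not overlap in any pair. It rose by 0.77 on the log2 scale at 18 months (SE 0.148, adjusted p = 0.0168) and by 1.68 at 24 months (SE 0.149, adjusted p = 0.0012), the smallest adjusted p among the members. Per kilobase of exon, which allows genes to be compared, its level moved from the fourth highest among the members at 2 months (214 CPM per kb) to the second at 18 months (364) and the first at 24 months (687). Gstm2 was at 324, 244, 266 and 228 CPM at 2 months, at 326, 523 and 390.2 at 18 months, and at 519.6, 644 and 708 at 24 months. Each 24 month sample lay above each 2 month sample, and the rise at 24 months was 1.23 (SE 0.19, adjusted p = 0.0029), while at 18 months Gstm2 missed the threshold (0.64, SE 0.19, adjusted p = 0.0569).

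The other mu class genes lie beside them. The 7 Gstm genes occupy 149 kb of chromosome 3, from 107895821 to 108044894 in mm10, in the order Gstm5, Gstm7, Gstm6, Gstm3, Gstm2, Gstm1 and Gstm4. Gstm1 and Gstm2 are neighbours, and Gstm3, the next gene, also rose at 24 months from a very low level, 0.212 ± 0.0941 CPM (n = 4) to 0.647 ± 0.203 (n = 3), a log2 fold change of 1.58 (SE 0.419, adjusted p = 0.0186). Leaving out 2 month replicate 1, or 24 month replicate 2 or 3, ended this call. Gstm6 was at 16.1 ± 4.68 CPM and 28.1 ± 3.85 and was not called (0.80, SE 0.302, adjusted p = 0.0642). Gstm4, Gstm5 and Gstm7, at the edges of the cluster, had log2 fold changes of 0.12 (SE 0.13), 0.05 (SE 0.167) and -0.32 (SE 0.25) at 24 months. Of the 50 base stretches of the Gstm1 exons 18.9% also occur in other genes, and 28.8% of those of Gstm3, so reads could be split between copies and these counts are less certain.

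The theta class genes rose together. Gstt3, Gstt1, Gstt4 and Gstt2 lie within 63 kb of chromosome 10, from 75774115 to 75837424, and the 3 that could be tested were called higher at 24 months. Gstt1, which acts on halogenated and other small substrates, was at 20.6, 20.4, 12.6 and 19 CPM at 2 months, at 33.1, 31.9 and 31.2 at 18 months, and at 31.6, 54.2 and 55.3 at 24 months. Gstt3 was at 1.93, 2.95, 3.00 and 2.37 CPM at 2 months, at 5.78, 8.99 and 8.75 at 18 months, and at 6.38, 13.9 and 12.7 at 24 months. For both, all older samples lay above all 2 month samples, and 24 month replicate 1 lay near the 18 month values. Gstt3 rose by 1.61 at 18 months (SE 0.304, adjusted p = 0.0162) and 2.10 at 24 months (SE 0.305, adjusted p = 0.00249). Gstt1 rose by 0.82 (SE 0.218, adjusted p = 0.0411) and 1.37 (SE 0.218, adjusted p = 0.00316). Gstt2 averaged 13.4 ± 1.63 CPM at 2 months against 26.9 ± 7.62 at 24 months (1.00, SE 0.187, adjusted p = 0.00531). It was not called at 18 months, at 19 ± 0.79 CPM (0.50, SE 0.188, adjusted p = 0.107).

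**Figure D2:**
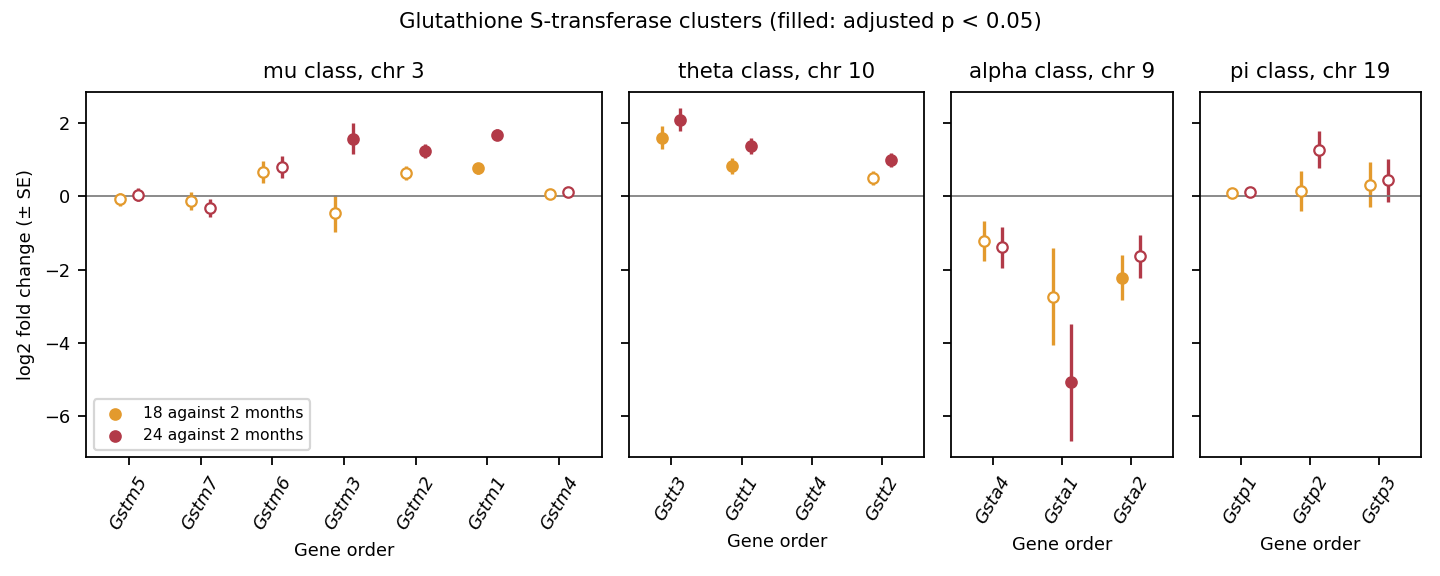
Log2 fold change (± SE) of each tested gene against 2 months in the 4 transferase clusters, with genes in chromosomal order (Gstt4, not tested, has no point). Filled points mark adjusted p under 0.05. All 3 tested theta genes are filled at 24 months, and in the mu cluster the filled 24 month points are the neighbours Gstm3, Gstm2 and Gstm1.

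The alpha class went both ways. Gsta3, which in mouse conjugates the epoxide of aflatoxin and lies alone on chromosome 1 (21240589 to 21265661), was at 7.69, 5.53, 9.10 and 4.96 CPM at 2 months, at 22.9, 25.1 and 13.2 at 18 months, and at 18.4, 22 and 39.6 at 24 months. Every older sample was above every 2 month sample. It rose by 1.58 at 18 months (SE 0.331, adjusted p = 0.0214) and 1.97 at 24 months (SE 0.332, adjusted p = 0.00397). The other 3 alpha genes form a cluster on chromosome 9 and none rose. Gsta2 fell by 2.21 on the log2 scale at 18 months (SE 0.611, adjusted p = 0.0462), from 6.44 ± 3.02 to 1.38 ± 0.884 CPM, and was at 2.07 ± 1.33 CPM at 24 months (-1.63, SE 0.589, adjusted p = 0.0557). Gsta1 was called lower at 24 months (adjusted p = 0.0344), with 138, 9, 62 and 2 counts at 2 months and 1, 0 and 4 at 24 months, and the ages overlapped. Of its 50 base stretches 90.5% occur in other genes, and 49.8% of those of Gsta2, so counts of this pair are uncertain. Gsta4, which conjugates the lipid peroxidation product 4-hydroxynonenal, was the alpha gene of highest level per kb. It was at 499.7, 93.6, 266 and 104 CPM at 2 months, at 136, 90.2 and 84.2 at 18 months, and at 121, 86.9 and 67.6 at 24 months, high in 2 month replicates 1 and 3 and overlapping between ages (24 months -1.39, SE 0.556, adjusted p = 0.0768).

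Of the remaining classes 1 gene was called. Gsto1, an omega class enzyme that reduces dehydroascorbate, was at 88.5, 72.0, 105 and 80.5 CPM at 2 months and at 52.6, 46.6 and 32.4 at 24 months, with no overlap, and fell by 0.98 (SE 0.224, adjusted p = 0.0109). Its level at 18 months was 57.0 ± 16.1 CPM (-0.60, SE 0.221, adjusted p = 0.104). Gstp1, the most abundant pi class gene, differed little, at 54.8 ± 3.32 CPM at 2 months and 59.9 ± 1.56 at 24 months (0.13, SE 0.0839, adjusted p = 0.256). Gstz1, the maleylacetoacetate isomerase of tyrosine breakdown, had a log2 fold change of 0.02 (SE 0.105), and Gstk1, an enzyme of mitochondria and peroxisomes, one of 0.59 (SE 0.284, adjusted p = 0.129).

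Nqo1, a quinone reductase and a standard NRF2 target (chromosome 8, 107388225 to 107403206), was at 4.58, 4.72, 3.82 and 3.65 CPM at 2 months, at 7.94, 5.58 and 10.3 at 18 months, and at 15.3, 12.6 and 11.9 at 24 months. The 3 ages did not overlap. It rose by 0.91 at 18 months (SE 0.224, adjusted p = 0.0319) and 1.66 at 24 months (SE 0.224, adjusted p = 0.00209). Nfe2l2 itself was at 187, 162, 224 and 164 CPM at 2 months and at 169, 161 and 196 at 24 months, and its log2 fold change was -0.07 (SE 0.131, adjusted p = 0.693), with a positive sign under library totals alone (0.13). Hmox1, the heme-degrading enzyme and another NRF2 target, was at 223, 97.4, 179 and 90.2 CPM at 2 months and at 177, 189 and 109.7 at 24 months, overlapping (0.10, SE 0.345, adjusted p = 0.835). Among the other regulators and targets of NRF2, a list of 26 genes, 5 were higher and 3 lower at 24 months and 1 was higher at 18 months, 30.8% and 3.85% of the list beside 35.0% and 11.6% of all genes. Cbr3, a carbonyl reductase, averaged 8.47 ± 0.795 CPM at 2 months against 19.7 ± 4.88 at 24 months (1.22, SE 0.192, adjusted p = 0.00308). Slc40a1, the iron exporter ferroportin, rose at both ages, by 0.65 (SE 0.138, adjusted p = 0.0215) and 0.83 (SE 0.138, adjusted p = 0.00364).

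Promoters of members that moved in opposite directions are shown so that the presence of the antioxidant response element can be read beside the fold changes. They are the 250 bases before the RefSeq start on GRCm38.p6, 5′ to 3′ on the gene's strand, and capitals mark a match on either strand to the element's core, TGACNNNGC. A match on the reverse strand shows as the reverse complement of that core. Gsta3, Nqo1 and Gstm1 rose at both older ages, Prdx1 fell at 24 months and Txnrd1 fell at both. The windows are chr1:21240335-21240584 (plus strand) for Gsta3, chr8:107403206-107403455 (minus) for Nqo1, chr3:108017819-108018068 (minus) for Gstm1, chr4:116685349-116685598 (plus) for Prdx1 and chr10:82858956-82859205 (plus) for Txnrd1. Gstm1 has 2 RefSeq windows and Txnrd1 has 3, of which 1 each is shown. The window with most matches to the core was the one printed. The only match in the 3 Txnrd1 windows therefore lies in the one shown.
Gsta3: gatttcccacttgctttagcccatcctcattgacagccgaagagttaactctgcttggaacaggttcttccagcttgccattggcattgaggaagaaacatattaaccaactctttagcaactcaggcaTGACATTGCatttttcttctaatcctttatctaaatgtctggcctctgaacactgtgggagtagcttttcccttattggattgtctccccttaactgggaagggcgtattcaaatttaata
Nqo1: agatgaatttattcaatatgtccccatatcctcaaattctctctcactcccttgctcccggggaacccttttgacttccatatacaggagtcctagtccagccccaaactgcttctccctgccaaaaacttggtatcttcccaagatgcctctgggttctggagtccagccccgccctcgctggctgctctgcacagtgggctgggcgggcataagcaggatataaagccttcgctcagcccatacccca
Gstm1: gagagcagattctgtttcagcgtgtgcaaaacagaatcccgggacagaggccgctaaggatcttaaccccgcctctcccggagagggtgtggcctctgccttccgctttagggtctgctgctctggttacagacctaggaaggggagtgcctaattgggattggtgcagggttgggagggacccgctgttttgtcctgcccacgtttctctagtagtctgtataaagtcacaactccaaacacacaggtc
Prdx1: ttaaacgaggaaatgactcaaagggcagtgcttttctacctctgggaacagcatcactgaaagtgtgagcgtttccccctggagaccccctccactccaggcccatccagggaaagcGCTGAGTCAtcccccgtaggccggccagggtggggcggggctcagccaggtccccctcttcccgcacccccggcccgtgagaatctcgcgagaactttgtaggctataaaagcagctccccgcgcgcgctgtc
Txnrd1: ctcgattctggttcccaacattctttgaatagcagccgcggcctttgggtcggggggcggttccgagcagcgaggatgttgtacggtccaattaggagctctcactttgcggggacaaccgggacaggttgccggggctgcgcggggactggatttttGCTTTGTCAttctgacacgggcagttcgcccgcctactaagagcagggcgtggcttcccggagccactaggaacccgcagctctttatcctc
Of the 53 members 46 matched a RefSeq promoter window of 300 bases, which runs 50 bases past the start. The core stood in windows of 9 of these 46 genes, 19.6%, against 14% of the 27025 genes with a window. The 9 were Gsta3, Nfe2l2, Srxn1, Gstm5, Gstm7, Gclm, Prdx1, Txnrd1 and Sod1. Among genes with a window, these were 1 of 7 that had risen at 24 months (14.3%) and 3 of 14 that had fallen (21.4%). The other 5 were among 22 not called (22.7%), while the windows of Nqo1 and Gstm1 held no match. The AP-1 motif TGANTCA, which the core can contain, was in windows of 5 of the 46 genes (10.9%, against 8.97% of all genes), and the Prdx1 core match overlaps such a motif. These are letter matches in a short window, and elements farther away were not searched.

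Within glutathione synthesis the first and the last enzyme moved in opposite directions at 24 months. Gclc, the catalytic subunit of glutamate-cysteine ligase (chromosome 9, 77754535 to 77794485), was at 144, 121, 119 and 116 CPM at 2 months, at 111, 100.4 and 156 at 18 months, and at 225, 217 and 225 at 24 months. The 24 month samples stood above all others, whereas the 2 and 18 month samples overlapped. It rose by 0.83 at 24 months (SE 0.148, adjusted p = 0.00458) and was at -0.03 at 18 months (SE 0.149). Its partner Gclm, the modifier subunit, was at 43.6 ± 4.56 and 49.8 ± 6.75 CPM at 2 and 24 months (0.19, SE 0.118, adjusted p = 0.223), and was called higher with library totals alone.

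Gss, glutathione synthetase (chromosome 2, 155563181 to 155592810), was at 57.4, 24.1, 88.5 and 32.3 CPM at 2 months, at 48.8, 31.8 and 21.5 at 18 months, and at 19.7, 16.5 and 16.1 at 24 months. The 24 month samples lay below all the others, and 2 month replicates 1 and 3 were the highest. It fell by 1.53 (SE 0.442, adjusted p = 0.0254). Leaving out 2 month replicate 1 (adjusted p = 0.0581), 24 month replicate 2 (0.0764) or 24 month replicate 3 (0.0738) ended this call. Exons of genes on the opposite strand cover 18.6% of the Gss exons, and the strand setting of the counting is not given in the sources used here. Gsr, glutathione reductase, averaged 57.6 ± 5.38 CPM at 2 months against 64.5 ± 12.1 at 24 months (0.16, SE 0.13, adjusted p = 0.348).

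In the wider glutathione cycle, a list of 25 further genes, 6 were higher and 7 lower at 24 months (52% called, beside 35.0% of all genes), and 3 higher and 2 lower at 18 months (20% beside 11.6%). Ggt5, a gamma-glutamyl transferase that cleaves leukotriene C4 and extracellular glutathione, was at 24.6, 22.7, 29.4 and 24.4 CPM at 2 months, at 57.2, 80.8 and 99.4 at 18 months, and at 75.8, 138 and 129 at 24 months. Anpep, an aminopeptidase that can split the cysteinylglycine left by that reaction, went from 45.0 ± 9.74 CPM to 144 ± 20.6 and 250.1 ± 114. All older samples exceeded all 2 month samples for both genes. Ggt5 rose by 1.64 (SE 0.231, adjusted p = 0.0104) and 2.17 (SE 0.233, adjusted p = 0.00159), and Anpep by 1.68 (SE 0.305, adjusted p = 0.0154) and 2.48 (SE 0.31, adjusted p = 0.00206).

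Among the superoxide dismutases, the mitochondrial and the cytosolic enzyme were lower at 24 months. Sod2, the manganese enzyme of mitochondria (chromosome 17, 13007839 to 13018119), was at 189, 241, 238 and 154 CPM at 2 months, at 190.3, 136 and 206 at 18 months, and at 102, 83.8 and 94.1 at 24 months. Its 24 month samples lay below every younger sample, and the younger ages overlapped. It fell by 1.14 (SE 0.195, adjusted p = 0.00407), and 21% of its 50 base stretches occur in other genes. Sod1, the copper-zinc enzyme of the cytosol, was at 392, 434, 403 and 386 CPM at 2 months and at 309, 270.3 and 286 at 24 months, and fell by 0.49 (SE 0.114, adjusted p = 0.012). With library totals alone Sod1 was not called. Sod3, the extracellular enzyme, averaged 88.2 ± 24.0 CPM at 2 months against 147 ± 56.4 at 24 months, with overlap (0.74, SE 0.328, adjusted p = 0.104). It was called higher with library totals alone, by limma-voom with sample weights (adjusted p = 0.0122) and by edgeR without 24 month replicate 3 (0.0318). Catalase, the peroxisomal enzyme encoded by Cat, was at 193 ± 44.7, 222 ± 49.1 and 209 ± 51.4 CPM at the 3 ages (24 months 0.11, SE 0.227, adjusted p = 0.718).

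The glutathione peroxidases had no member called higher. All 6 tested genes had negative log2 fold changes at both older ages, although Gpx8 turned positive at 24 months with library totals alone, and 4 were called at 24 months and 2 at 18 months. Gpx1, the cytosolic enzyme, was at 526, 351, 784 and 256 CPM at 2 months, at 328, 350.4 and 316 at 18 months, and at 188, 184 and 136 at 24 months. The oldest samples were below all others, and 2 month replicate 3 stood far above 2 month replicate 4. It fell by 1.5 (SE 0.338, adjusted p = 0.0105). Gpx4, which reduces lipid hydroperoxides in membranes and guards against ferroptosis, was at 274, 239, 289 and 195 CPM at 2 months, at 215, 148 and 150.4 at 18 months, and at 155, 94.7 and 104 at 24 months. It fell by 1.08 at 24 months (SE 0.219, adjusted p = 0.00704), without overlap with the 2 month samples. Of its 50 base stretches 34.7% also occur in pseudogenes.

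Gpx7, a peroxidase of the endoplasmic reticulum, was at 59.99, 65.1, 34.6 and 60.3 CPM at 2 months, at 28.4, 28.9 and 21.6 at 18 months, and at 23.1, 23.7 and 16.1 at 24 months. Both older ages were below the youngest. It fell by 1.06 (SE 0.234, adjusted p = 0.0237) and 1.39 (SE 0.237, adjusted p = 0.00404), and its relative in the same compartment, Gpx8, was at 54.7 ± 6.88 and 49.6 ± 5.47 CPM at 2 and 24 months (-0.14, SE 0.168, adjusted p = 0.533). Gpx6, known from the olfactory epithelium, was called lower at both ages on very few counts, with 13, 17, 4 and 12 at 2 months, 1, 2 and 0 at 18 months and 2, 1 and 1 at 24 months (adjusted p = 0.0218 and 0.00724).

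Gpx3, the secreted plasma peroxidase, had the highest level per kb of all members at 2 and 18 months, 1340 and 736 CPM per kb, and the second at 24 months, 578. It was at 3324, 1072, 3936 and 1389.7 CPM at 2 months, at 2056, 1557 and 392 at 18 months, and at 1346, 364 and 1432 at 24 months. The ages overlapped, and samples of 1 age differed by more than the ages did, so that Gpx3 made up 6.43% to 36.8% of the summed CPM of all members. Its log2 fold change at 24 months was -1.21 (SE 0.69, adjusted p = 0.193), and limma-voom with sample weights called it lower (adjusted p = 0.0491).

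**Figure D3:**
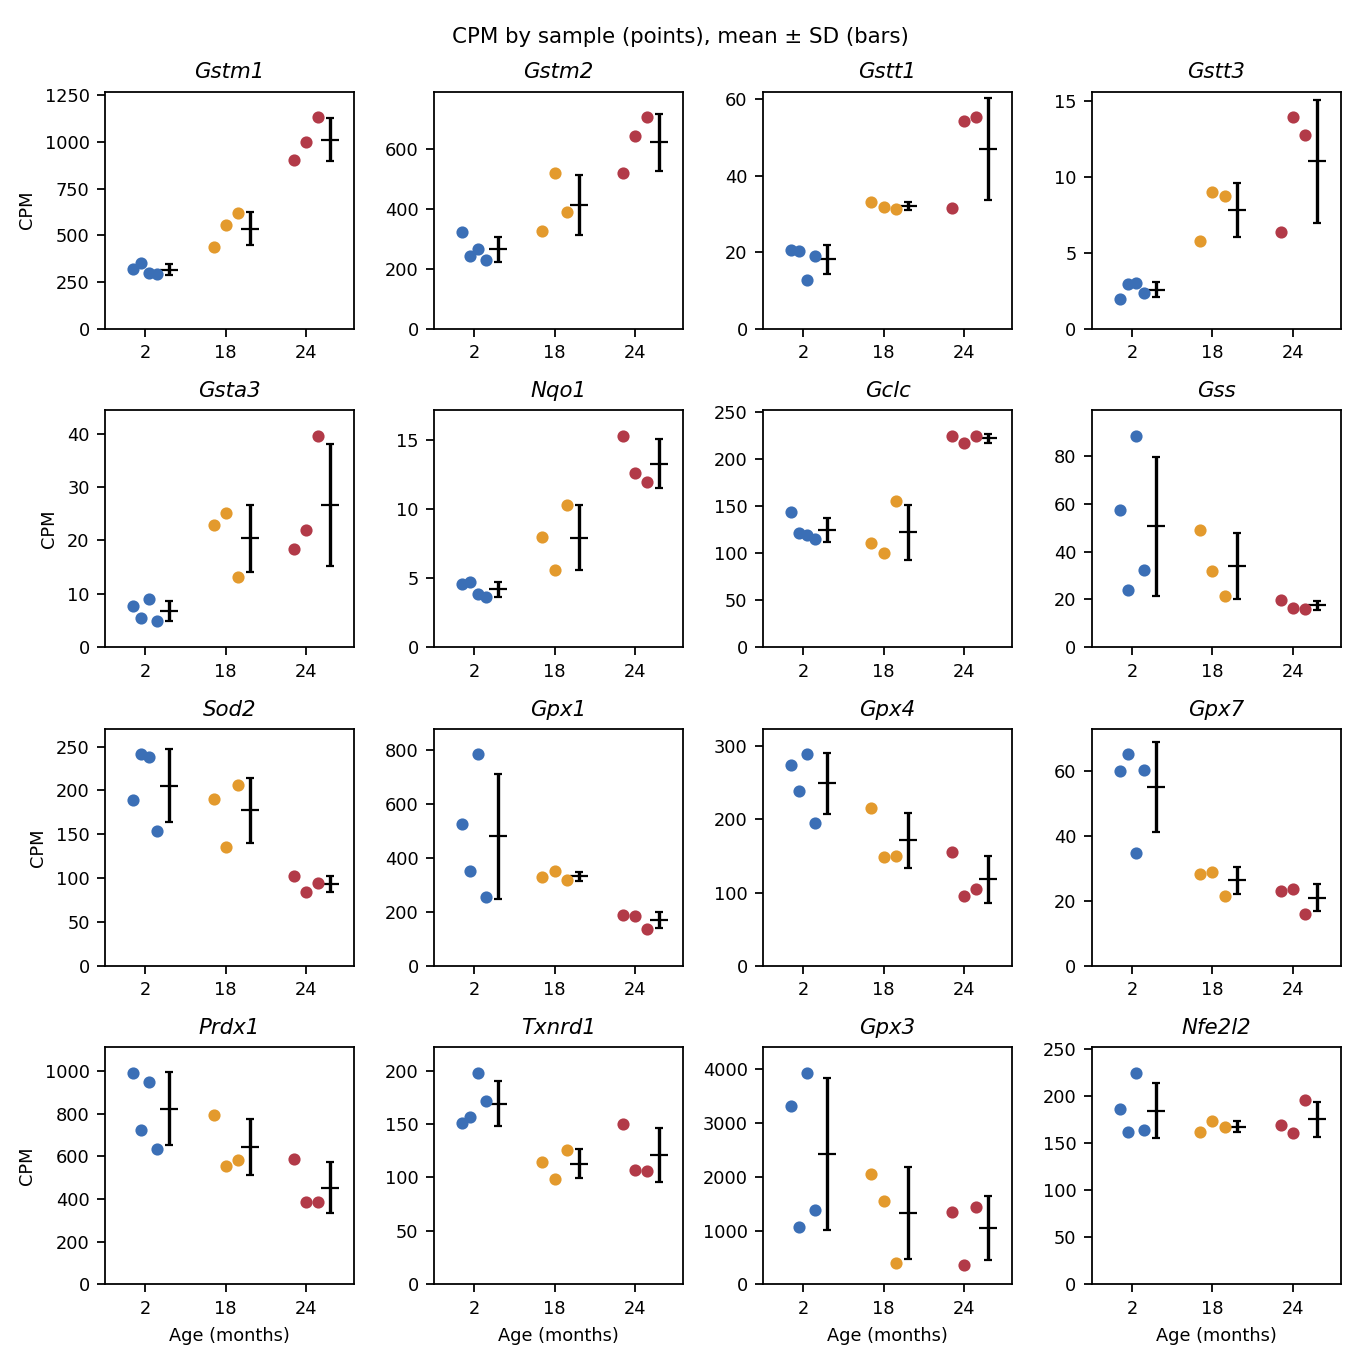
CPM in each of the 10 samples (points) with the mean and SD of each age (bars) for 16 members, on axes that start at 0. The 24 month points of Gstm1, Nqo1 and Gclc lie above all younger ones, those of Sod2, Gpx1 and Gss below, and the points of Gpx3 and Nfe2l2 overlap between ages.

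Of the 7 genes of the peroxiredoxin group 4 fell at 24 months and none rose. Prdx1, the most abundant member of the family, a cytosolic enzyme, was at 990.5, 721, 948 and 634 CPM at 2 months, at 795, 554 and 584 at 18 months, and at 589, 384 and 385 at 24 months. The oldest samples lay below the youngest. It fell by 0.86 (SE 0.231, adjusted p = 0.0191), and the call was lost without 24 month replicate 2 or 3. Prdx2, the other main cytosolic enzyme, fell by 0.94 (SE 0.204, adjusted p = 0.00872), from 336 ± 36.7 to 174 ± 52.9 CPM. Prdx3, the mitochondrial enzyme, was at 244 ± 53.0 CPM at 2 months, 244 ± 17.9 at 18 months and 159 ± 37.3 at 24 months. It fell by 0.62 (SE 0.204, adjusted p = 0.0404) with overlapping samples, and lost the call in 8 of the 10 fits that left out a sample and with library totals alone. Prdx6, which reduces phospholipid hydroperoxides, fell by 0.51 (SE 0.142, adjusted p = 0.0217), a call lost with library totals alone and without 24 month replicate 2 or 3.

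Prdx4, of the endoplasmic reticulum, was at 65.3, 62.3, 41.8 and 56.0 CPM at 2 months, at 38.1, 38.9 and 39.5 at 18 months, and at 38.3, 44.9 and 46.0 at 24 months. The 18 month samples were all below the 2 month ones, and it fell by 0.54 (SE 0.147, adjusted p = 0.0447), but was not called at 24 months (-0.39, SE 0.147, adjusted p = 0.0638). The 18 month call of Prdx4 was lost in 14 of the alternative fits. At 24 months it was called lower by DESeq2 (adjusted p = 0.0417) and limma-voom (0.0148). The same held in edgeR with 11 separate libraries (0.049) and without 2 month replicate 3 (0.00829). Prdx5 had a log2 fold change of 0.05 at 24 months (SE 0.103). Srxn1, the sulfiredoxin that restores overoxidised peroxiredoxins, was at 131, 57.4, 157 and 89.3 CPM at 2 months and at 84.4, 65.0 and 40.2 at 24 months, again with 2 month replicates 1 and 3 highest (-0.78, SE 0.387, adjusted p = 0.139).

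In the thioredoxin group 2 of 5 genes fell at 24 months. Txnrd1, the cytosolic thioredoxin reductase, was at 151, 157, 198 and 171 CPM at 2 months, at 114, 98.7 and 126 at 18 months, and at 150.0, 107 and 106 at 24 months. Both older ages lay below the youngest, 24 month replicate 1 only just. It fell by 0.58 at 18 months (SE 0.157, adjusted p = 0.0428) and 0.48 at 24 months (SE 0.157, adjusted p = 0.0377), and both calls were lost with library totals alone and without 2 month replicate 2, 3 or 4 or 24 month replicate 2. Txn2, mitochondrial thioredoxin, fell by 0.40 at 24 months (SE 0.123, adjusted p = 0.0327), not called with library totals alone, nor without 2 month replicate 1 or 3 or 24 month replicate 2 or 3. Txn1, the cytosolic form, was at 148 ± 16.9 and 119.8 ± 12.1 CPM (-0.31, SE 0.143, adjusted p = 0.12). The mitochondrial reductase Txnrd2 and the testis-enriched Txnrd3 had log2 fold changes of -0.21 (SE 0.202) and -0.10 (SE 0.138), the latter positive with library totals alone. Of 20 further partners of thioredoxin and methionine sulfoxide repair 3 were higher and 3 lower at 24 months, and 1 higher and 1 lower at 18 months, shares of 30% and 10% that lie below those of all genes. Txnl1, a thioredoxin-like protein of the proteasome, fell by 0.57 (SE 0.148, adjusted p = 0.0384) and 0.79 (SE 0.149, adjusted p = 0.00554). Msrb3, a methionine sulfoxide reductase, rose by 0.83 at 24 months (SE 0.179, adjusted p = 0.00851), and Sesn1, a sestrin, by 0.54 at 18 months (SE 0.146, adjusted p = 0.0432).

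**Figure D4:**
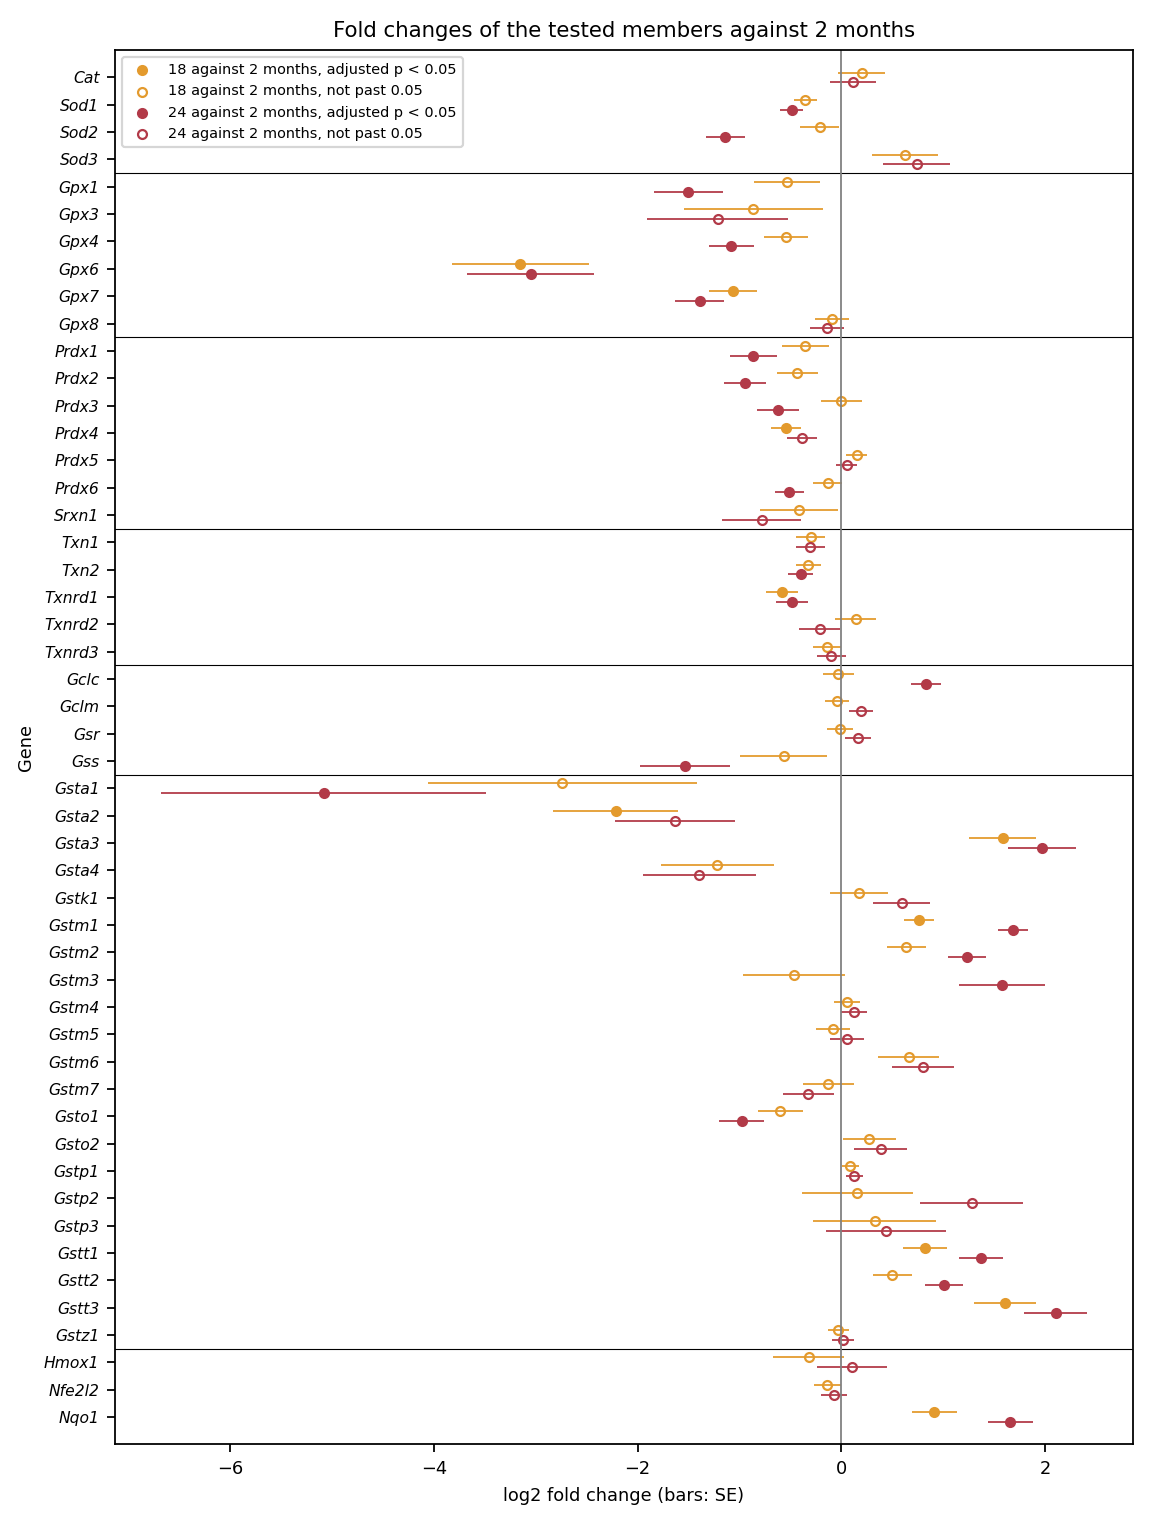
Log2 fold change with SE for the 50 tested genes at 18 months (orange) and 24 months (red) against 2 months, grouped by family; filled points have adjusted p under 0.05. The filled 24 month points are 9 to the right of 0, in the GST group, Gclc and Nqo1, and 15 to the left.

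The calls at 18 months rested on few samples. None of the 10 held in all 10 fits that each left out 1 sample. The count of members called in such a fit, new calls included, was 0, 2, 6 and 1 without 2 month replicate 1, 2, 3 or 4. It was 7, 1 and 1 without 18 month replicate 1, 2 or 3+4, and the 7 included Gsto1 and Gstm2, which the main fit did not call. At 24 months 15 of the 24 held in all 10 fits: Gclc, Gpx1, Gpx4, Gpx7, Gsta3, Gstm1, Gstm2, Gsto1, Gstt1, Gstt2, Gstt3, Nqo1, Prdx2, Sod1 and Sod2. Gpx6 was called in the 7 of these fits in which it could be tested and fell under the count filter in the other 3.

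Between 18 and 24 months no member was called by edgeR (0 of 50, beside 0.00492% of all genes). Its unadjusted p was under 0.05 for 13 members, and the share of all tested genes under that value was not counted. DESeq2 called 3 and limma-voom 0. Those 3 also had the smallest p in edgeR. Gstm1 had a log2 fold change of 0.92 (SE 0.16), Gclc one of 0.86 (SE 0.161) and Sod2 one of -0.93 (SE 0.204), each with an adjusted p of 0.387. Gstm1, Gclc, Nqo1 and Gstm3 were higher in every 24 month sample than in any 18 month sample, and Sod2, Gpx1, Gss and Prdx3 were lower in every one. These are 4 and 4 of the 50 tested members, and the share of all tested genes that separate so was not counted. The 18 and 24 month samples of the same replicate number deviated together, and with the replicate number as a block still 0 members were called.

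The genes that supply or use the same reducing power were read from lists around the members. Over 128 tested genes of 7 such lists 24 were higher and 25 lower at 24 months, and 11 and 6 at 18 months. These are 38.3% and 13.3% of the listed genes, near the 35.0% and 11.6% of all tested genes. The total of 49 at 24 months was 32 without 24 month replicate 2. The total of 17 at 18 months was 3, 8 and 7 without 2 month replicate 1, 2 or 4, and 8 and 4 without 18 month replicate 2 or 3+4. Of 14 genes of NADPH supply 5 were lower and none higher at 24 months (35.7% called), and 2 lower at 18 months (14.3%). Mthfd2, a mitochondrial folate enzyme, fell by 1.21 at 24 months (SE 0.236, adjusted p = 0.00632), and Pgls, of the pentose phosphate pathway, from 69.5 ± 2.77 CPM to 48.6 ± 7.12 and 46.3 ± 5.96 (-0.52, SE 0.122, adjusted p = 0.0284, and -0.59, SE 0.122, adjusted p = 0.00771). Mthfd1, a cytosolic folate enzyme, fell by 0.57 at 18 months (SE 0.114, adjusted p = 0.0183).

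Of 11 tested subunits of NADPH oxidases, which make superoxide, 7 were higher and none lower at 24 months (63.6% called), and 4 higher at 18 months (36.4%). Cyba, the p22phox subunit, rose from 21.8 ± 2.92 to 40.5 ± 2.00 and 46.5 ± 8.79 CPM, by 0.89 (SE 0.143, adjusted p = 0.0127) and 1.09 (SE 0.143, adjusted p = 0.00209), and Cybb, the catalytic subunit of phagocytes, by 1.21 (SE 0.223, adjusted p = 0.0154) and 1.61 (SE 0.223, adjusted p = 0.00222). Macrophage markers moved with them, with 12 of 12 higher at 24 months and 11 of 12 at 18 months, and a summed level between 395.3 and 569.9 CPM at 2 months, between 829 and 1365 at 18 months and between 1204 and 1759 at 24 months. Whether their part accounts for the oxidase values was not tested. In bulk tissue, more or fewer cells of a type and more or less RNA per cell cannot be told apart.

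Of 20 genes of selenoprotein synthesis and other selenoproteins 1 was higher and 4 lower at 24 months (25% called). Selenop, the secreted selenium carrier, rose by 0.74 and 0.62 (SE 0.127 in both, adjusted p = 0.0134 and 0.00742), and Selenoh, a nucleolar selenoprotein, fell by 0.71 and 0.62 (SE 0.125 in both, adjusted p = 0.0144 and 0.0069); these were also the only 2 called at 18 months. Of 12 metallothionein and ferroptosis genes 2 were higher and 3 lower at 24 months (41.7% called). Alox5, the leukotriene-forming lipoxygenase, rose by 1.27 at 18 months (SE 0.349, adjusted p = 0.0453) and 2.25 at 24 months (SE 0.347, adjusted p = 0.0029), and Mt2, a metallothionein, by 0.83 at 24 months (SE 0.151, adjusted p = 0.00492).

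Markers of other cell types moved with the members in both directions. The list of 12 luteal and theca genes had summed levels of 59561, 34967, 80286 and 37415 CPM in the 2 month samples. The sums were 43052, 28445 and 26526 CPM in the 18 month samples and 27281, 14352 and 6967 CPM in the 24 month samples. Its 2 highest samples, 2 month replicates 1 and 3, were also the 2 highest of all samples for 14 of the 50 tested members: Gpx1, Gpx3, Gpx4, Gss, Gsta1, Gsta2, Gsta4, Gsto1, Prdx1, Prdx2, Prdx3, Srxn1, Txn1 and Txn2. How many of all tested genes have these 2 samples highest was not counted, so the pattern cannot be called particular to the members. The same 2 samples were highest for a list of 9 immediate early and heat shock genes, at 743 and 757 CPM summed against 324 and 566 in the other 2 month samples and 215.5 to 593 in the older ones. They were also highest for 13 mitochondrially encoded genes (mt-Nd4l at 0), at 39420.0 and 39812 CPM against 29516 and 29971 in the other 2 month samples and 26398 to 38959 in the older ones. At 24 months 6 of the 12 luteal and theca genes were lower (edgeR) with a median log2 change of -1.41 over the list, and at 18 months that median was -0.41 with 8 of 12 log2 changes below 0, not past the threshold. The oocyte list had a summed level between 313.6 and 743 CPM at 2 months, between 42.0 and 87.8 at 18 months and between 7.91 and 57.1 at 24 months, with 16 of 16 genes lower at 24 months. Epithelial markers rose: 10 of 10 oviduct genes were higher at 24 months, from 72.2 to 94.1 CPM summed at 2 months to 118 to 1292 at 24 months, and 24 month replicate 3 was the highest. That sample was also highest for 5 of the 9 members called higher (Gsta3, Gstm1, Gstm2, Gstt1 and Gstt2) and lowest for 7 of the 15 called lower (Gsto1, Gpx1, Gpx7, Gss, Prdx2, Prdx3 and Txn2). How many of all called genes are most extreme in 24 month replicate 3 was not counted, so neither count can be called particular to the members. The stromal fibroblast list had 4 of 8 genes higher at 24 months, with 2414 to 3200 CPM at 2 months and 3492 to 6749 at 24 months. No gene of the 5 cell type lists (macrophage included) was at 0 in all samples. The part of these cell types, and of the heat shock and mitochondrial levels, in the values of the members was not tested.

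**Figure D5:**
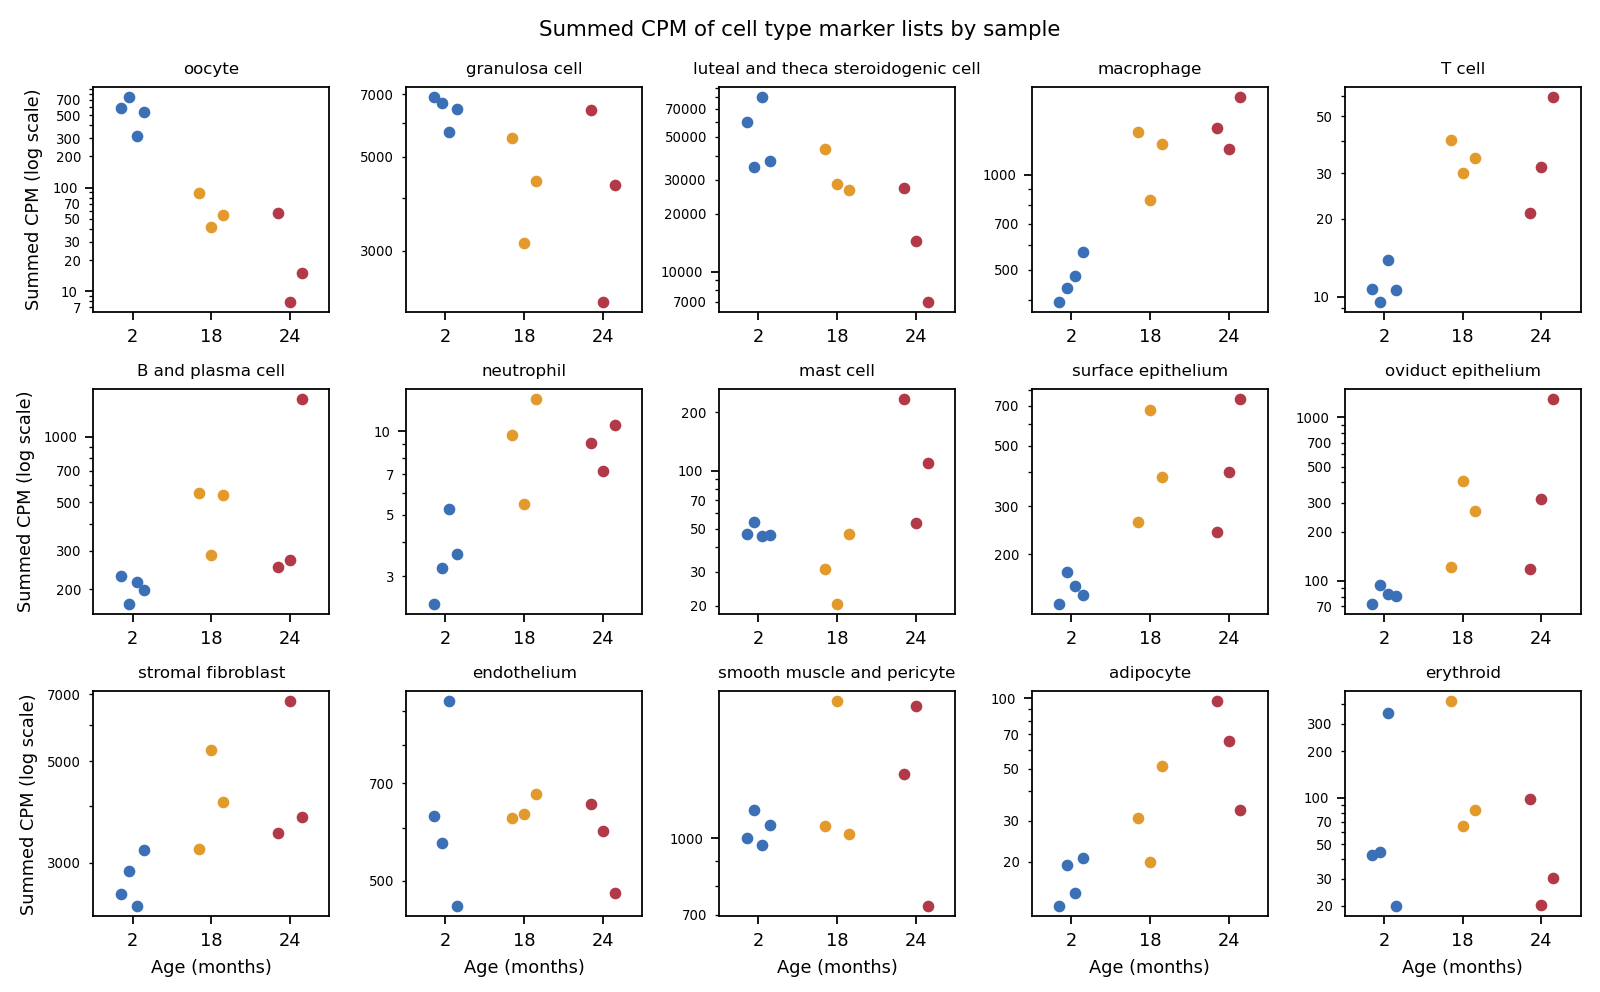
Summed CPM of 15 cell type marker lists in each sample, on log axes, by age. The luteal and theca list is highest in 2 samples of 2 months and lowest at 24 months, and the macrophage and oviduct epithelium lists are lowest at 2 months.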

How the data were processed

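RNA of whole ovaries was isolated with Trizol and column clean-up, and sequenced from stranded mRNA libraries, per the labels' protocols. The authors deposited raw counts of reads per gene, 1 column per library, and the submitters' processing notes name FastQC, cutadapt, STAR, HTSeq and mm10. The strand setting and versions are not given in the sources used, so counts of overlapping antisense genes are uncertain.

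Genes were filtered with filterByExpr, scaled by TMM and tested with edgeR 4.0.16 (R 4.3.3), with the 3 ages in 1 quasi-likelihood model (glmQLFit with robust estimation, two-sided, 7 residual degrees of freedom). Adjustment was by Benjamini-Hochberg over 20331 genes, at 0.05. The SE is the log2 fold change over the square root of F. The script was tested on simulated counts. Exon lengths, overlaps and shared stretches came from GENCODE release M21, and promoters from RefSeq on GRCm38.p6. All 53 members were found in GENCODE.

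Members and lists were chosen with earlier results of these data known. Named members were the called genes with the smallest adjusted p (up to 12 per comparison), the most abundant of each family, and the fixed set of synthesis, reductase and NRF2 genes; of each further list the first 2 called genes are named. Values are on TMM-scaled CPM.

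Alternatives were scaling by DESeq2's size factors or by library totals alone, other count filters, DESeq2 1.42.0, limma-voom (limma 3.58.1), only the ages compared, 11 separate libraries, a replicate block and leaving out each sample. Replicate numbers were checked by correlating deviations from the age means. The 18 and 24 month pairs gave 0.389, 0.28 and 0.147, all above 0.1. They were treated as pairs in the block fits alone, and the main fit held age only, without pairing. A pair of unlike numbers, 18 month replicate 2 with 24 month replicate 3, also gave 0.135, and no label states what a number stands for.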

Additional observations from a re-analysis of the deposited data

Results flagged for a closer look

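Gpx7, the peroxidase of the endoplasmic reticulum, was at 34.6 CPM in 2 month replicate 3, while the other 2 month samples lay between 59.99 and 65.1 CPM. The gap to the nearest sample was 0.833 of the range of the group, above Dixon's 95% critical value for 4 samples. The 2 month group was examined for 50 members and this was the only one past the limit, which chance passes in about 1 of 20 groups. All older samples were below this value as well, at 16.1 to 28.9 CPM.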

How the results depend on the processing

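No fold change of a named member that was called changed sign under any alternative run; of the recomputed values of the members named by the rule 1513 stayed on their side of the threshold, 85 lost a call and 14 gained one. Over all members and the 3 comparisons 111 calls were lost and 41 gained. At 18 months against 2 months the count of members was 0 to 10 when 1 sample was left out and 4 with the replicate block, whose numbers did not pair these ages (correlations 0.0628, -0.0538 and -0.0517), and 7 to 13 under the other alternatives. The further pathway genes went from 17 to 10 with the block and to 3 to 19 with a sample left out. At 24 months against 2 months the members numbered 16 to 24 with a sample left out, 25 with the block (correlations -0.0315, -0.0698 and -0.113) and 21 to 30 otherwise, and the further genes 32 to 59 with a sample left out. Between 24 and 18 months DESeq2 called 3 members and 1 further gene (Abcc1), against 0 and 0 by edgeR; both block fits gave 0. The causes were not tested. DESeq2 gave no adjusted p there for 1 tested member. Members under 1 CPM rest on few counts.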
